A study of Ovis aries with 3 samples.

Results

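The fibroblast growth factors FGF8 and FGF17 and the receptors FGFR1, FGFR2, FGFR3 and FGFR4 were examined in single cells of sheep embryos. All 6 genes, taken by symbol, were among the 26478 genes of the deposited tables. FGF8 carried the identifier ENSOARG00020024835, FGF17 ENSOARG00020023369, FGFR1 ENSOARG00020021552, FGFR2 ENSOARG00020018761, FGFR3 ENSOARG00020023492 and FGFR4 ENSOARG00020012095. Each gene was described in 3 libraries and in 8 groups of cells, each defined by 1 marker gene, to show which cells held the ligand RNA and which held RNA of a receptor that could receive the signal.

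The study compared Hulunbuir short-tailed sheep (HSTS) with Hu sheep (HS). By the study's genotyping of rams and ewes, HSTS were homozygous for a missense variant of the transcription factor gene T, which HS lacked. One library came from a day 19 HSTS embryo (E19 HSTS), one from a day 19 HS embryo (E19 HS) and one from day 16 HS (E16 HS). The E16 HS label names 1 embryo where the study's methods name 3, so whether that library pooled embryos is not settled here, and E16 HSTS was not analysed here. Whole embryos were dissociated with collagenase and red blood cells were lysed before 10x Genomics 3′ profiling, with no selection of a tissue.

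FGF8 and FGF17 are secreted proteins of one subfamily, made at signalling centres that include the tail bud, the border between midbrain and hindbrain and the ectodermal ridge of the limb. A ligand binds a receptor tyrosine kinase together with heparan sulphate, and the receptor signals through FRS2 and GRB2 to the ERK pathway. The pathway switches on its own inhibitors, among them DUSP6, IL17RD and the Sprouty genes, which are widely used as a readout of FGF signalling. In vertebrate embryos, FGF signalling at the tail end maintains progenitors of the trunk and tail and sets the position of the somite boundary.

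After filtering, 11329 of 12645 cells remained in E16 HS, 10629 of 12064 in E19 HS and 9618 of 11114 in E19 HSTS. Their unique molecular identifiers (UMIs, each marking 1 captured RNA molecule) numbered 88733467 to 113213654 per library, with a median of 6900 to 9046 per cell. Each pair of libraries shared between 31 and 37 cell barcodes, and 0 barcodes occurred in all 3. With 1 library in each group, no test between groups was possible, and breed or day cannot be told apart from differences between single embryos or libraries. Levels are UMIs per 1000000 (CPM) with exact Poisson 95% intervals, shares carry exact binomial 95% intervals, and ratios carry exact conditional 95% intervals. These intervals cover counting error only. They say nothing about the variation between embryos. A run of 3 values without library names is in the order E19 HSTS, E19 HS, E16 HS.

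A cell joined a group when it held at least 1 UMI of SOX2 (neural), MEOX1 (somite), EPCAM (epithelium), DCN (fibroblast-like mesenchyme), PECAM1 (endothelium), MYF6 (muscle precursor) or CDX2 (caudal embryo), or at least 5 UMIs of AHSP (red cell precursor). Groups overlapped, and between 10.2 and 19.3% of cells were in more than 1. The groups are named here by their gene because not every group carried the other markers of its tissue. In E19 HSTS, the CDX2 group of 176 cells had 5 of 7 further caudal markers at 0 UMIs (CDX1, NKX1-2, TBX6, WNT3A and HES7), with a summed level of 7.35 CPM against 0.992 in the remaining cells. In E19 HS, 6 of the 7 caudal markers were at least 2-fold higher in its 161 CDX2 cells (35 against 1.52 CPM summed), and CDX1 was at 0. In E16 HS, 6 of 7 were higher in 1213 CDX2 cells (68.8 against 4.33 CPM). The MYF6 group had 3 of 5 muscle markers at 0 in E16 HS (MYOG, MYOD1 and CHRNA1) and 1 in E19 HS (MYOD1), and the EPCAM group of E16 HS had 3 of 5 epithelial markers at least 2-fold higher. After the lysis of red cells, the AHSP group made up 26%, 13.2% and 17.6% of cells. It held 45013696, 25620038 and 28574196 UMIs, so it weighs on every level taken over a whole library and on every ratio to the remaining cells. Some ratios are therefore also given against remaining cells without AHSP cells. Those of FGF17 and FGFR4, and those in PECAM1 cells, are given only against all remaining cells.

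FGF8 was seen in 865 cells of the E16 HS library, against 282 of E19 HS and 209 of E19 HSTS. Its level was 19.9 CPM (19.1 to 20.8, 2257 UMIs) in E16 HS, 6.62 CPM (6.09 to 7.17, 587 UMIs) in E19 HS and 5.23 CPM (4.79 to 5.7, 521 UMIs) in E19 HSTS. The E16 HS library was the high one, and no pair of the intervals overlapped. The share of cells with FGF8 was 2.17% (E19 HSTS), 2.65% (E19 HS) and 7.64% (E16 HS). With every cell thinned to 3000 UMIs, which kept between 8512 and 10012 cells per library, the shares were 1.2%, 1.52% and 4.39%. Red cell precursors, which should lack FGF8, held it in 0.12%, 0.143% and 1.1% of cells at median depths of 17925, 17742 and 14233 UMIs, against 7195, 6339.5 and 8054 in the other cells. The FGF8 shares therefore stood above the level of free RNA in each library.

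FGF17 was nearly absent from the E19 HSTS library. It had 2 UMIs in 2 cells there (0.0201 CPM). E19 HS held 38 UMIs in 32 cells (0.428 CPM) and E16 HS 388 UMIs in 302 cells (3.43 CPM, 3.09 to 3.79). The share of cells was 0.0208%, 0.301% and 2.67%, or 0.118% (E19 HS) and 1.17% (E16 HS) after thinning. It was seen in 0.401% of AHSP cells of E16 HS and in 0 of the AHSP cells of both E19 libraries.

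FGFR1, the receptor that mediates FGF8 signalling in the early mesoderm, was the most widely detected of the 4 receptors. Its level was 33.1 CPM (32.1 to 34.2) in E16 HS, 37.7 CPM (36.5 to 39) in E19 HS and 37.8 CPM (36.6 to 39) in E19 HSTS, and the intervals of both E19 libraries overlapped. It was detected in 27.1%, 23.8% and 22.1% of cells, or 12.7%, 12.6% and 9.57% after thinning, against 3.84%, 3.07% and 4.06% of AHSP cells. FGFR2, the main receptor of epithelia, stood at 13.2 CPM (12.5 to 13.9), 14.3 CPM (13.5 to 15.1) and 11.8 CPM (11.2 to 12.4). FGFR3, best known in the neural tube and the growth plate, stood at 3.41 CPM (3.06 to 3.8), 2.96 CPM (2.62 to 3.34) and 1.94 CPM (1.69 to 2.22). FGFR4 had only 17, 13 and 10 UMIs in all. The 3′ counts do not separate the splice forms of the receptors, which differ in the ligands they bind. They also do not allow one gene's level to be set against another's beyond a share of UMIs.

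**Figure D1:**
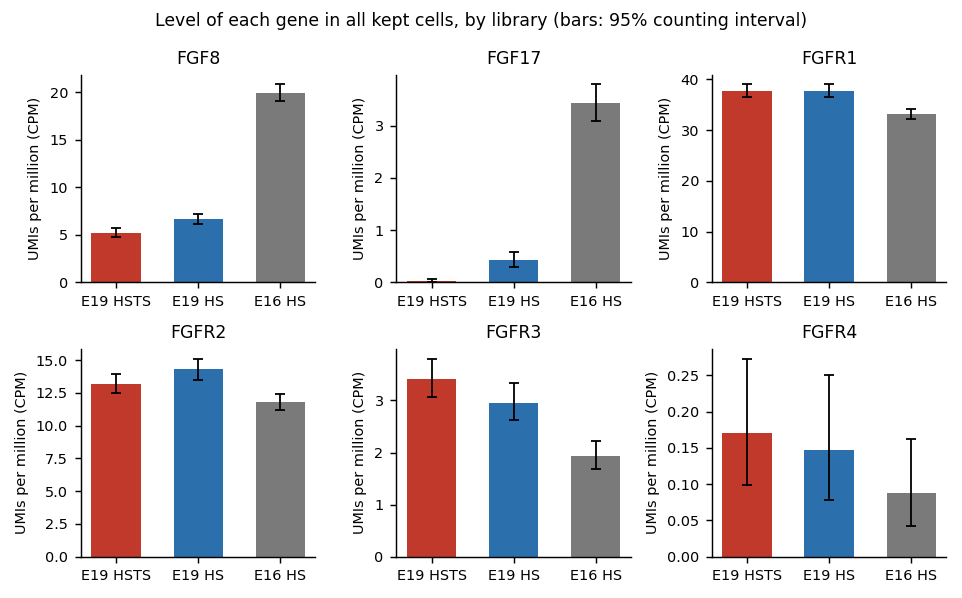
Level of each of the 6 genes in the 3 libraries, in UMIs per 1000000 on a linear axis, 1 panel per gene and 1 bar per library with its exact Poisson 95% interval (counting error only). FGF8 and FGF17 are highest in E16 HS, at 19.9 and 3.43 CPM, while FGFR1 lies between 33.1 and 37.8 CPM in all 3 libraries.

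Between breeds at day 19, none of the 4 members compared, which leaves out FGF17 and FGFR4 with under 50 UMIs over both libraries, was 1.5-fold higher or lower in E19 HSTS than in E19 HS, where 4.13% of 11437 genes were at least 1.5-fold higher and 6.46% at least 1.5-fold lower. FGF8 had a ratio (E19 HSTS over E19 HS) of 0.791 (0.702 to 0.891). For FGFR1 it was 1 (0.955 to 1.05), for FGFR2 0.923 (0.854 to 0.998) and for FGFR3 1.15 (0.978 to 1.36). These values moved with the AHSP share of the libraries. Summed over cells outside the AHSP group, the ratios were 1.02 (0.908 to 1.15) for FGF8, 1.28 (1.22 to 1.34) for FGFR1, 1.16 (1.07 to 1.25) for FGFR2 and 1.48 (1.25 to 1.75) for FGFR3. Leaving out those cells thus took the FGF8 ratio across 1 and placed all 3 receptor intervals above 1. The same ratio over all genes was not computed outside the AHSP group, so how far other genes moved alike was not tested. FGF17 was lower in E19 HSTS, with 2 against 38 UMIs and a ratio of 0.0469 (0.00548 to 0.181).

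Between days in Hu sheep, 2 of 5 members compared were at least 1.5-fold higher at E16 than at E19 and 1 was at least 1.5-fold lower, where 22.7% of 11745 genes were higher and 10.3% lower by that much. The ratio of E16 HS to E19 HS was 3.01 (2.75 to 3.31) for FGF8 and 8 (5.73 to 11.5) for FGF17. FGFR1, FGFR2 and FGFR3 had intervals below 1, at 0.878 (0.838 to 0.92), 0.827 (0.765 to 0.893) and 0.656 (0.546 to 0.787). FGFR4 gave 0.603 with an interval that included 1 (0.237 to 1.49). Over all compared genes the median of this ratio was 1.19, above that of the 3 receptors.

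FGF8 levels differed between marker gene groups, and the order of the groups differed between libraries. In the CDX2 group, FGF8 stood at 107.6 CPM (102.1 to 113.5) in E16 HS, 60.6 CPM (48.4 to 75) in E19 HS and 10.2 CPM (6.03 to 16.1) in E19 HSTS, so the 3 intervals were apart. It was detected in 33.7%, 23% and 7.39% of CDX2 cells in that order, or 21.3%, 14.4% and 2.92% after thinning. In the EPCAM group, the FGF8 level was 21.2 CPM (18.7 to 23.9), 20.1 CPM (17.8 to 22.6) and 52 CPM (49.3 to 54.7), and both E19 libraries overlapped. The SOX2 group had 9.12, 11.1 and 50.9 CPM, and the MEOX1 group 14.2, 16.2 and 18.6 CPM. The small MYF6 group had 20.6, 33.8 and 17.1 CPM, from 29, 36 and 22 UMIs. DCN cells were lower, at 1.51, 3.69 and 8.54 CPM. In PECAM1 cells there were 0 UMIs in 186 and 303 cells of the E19 libraries, where the limit of 3 counts is 1.67 and 1.17 CPM and the exact interval reaches 2.05 and 1.44 CPM, and 7 UMIs in 76 cells of E16 HS. AHSP cells had 0.0666, 0.0781 and 1.29 CPM.

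In the order of the groups, EPCAM came first in E19 HSTS, with neighbours down to SOX2 overlapping pairwise. CDX2 came first in both HS libraries, with an interval apart from the next group. Within E19 HS the order was CDX2, MYF6, EPCAM, MEOX1, SOX2, DCN, AHSP and PECAM1, and 5 of the 7 neighbouring pairs had separate intervals.

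**Figure D2:**
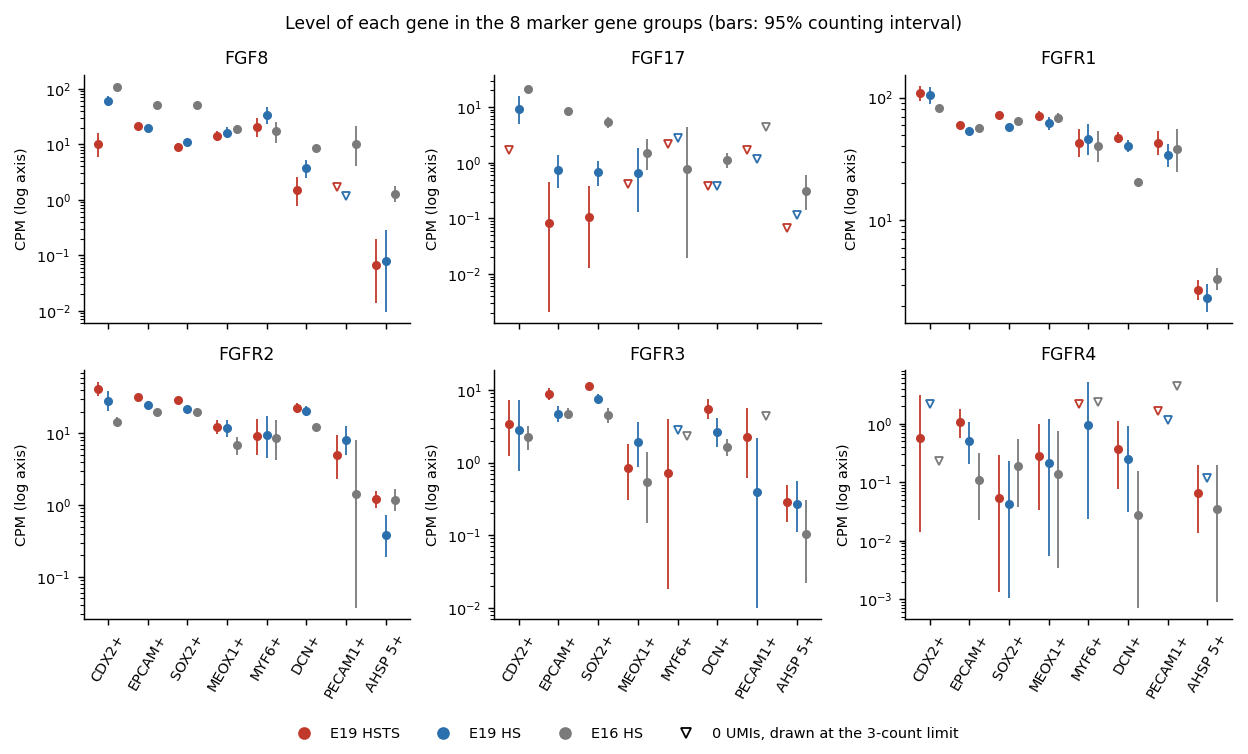
Level of each gene in the 8 marker gene groups, in UMIs per 1000000 on a log axis, with exact Poisson 95% intervals and 1 colour per library. Open triangles mark 0 UMIs, drawn at the level that 3 counts would give. FGF8 in the CDX2 group spreads from 10.2 to 107.6 CPM over the libraries, while FGFR1 in that group stays between 82.6 and 108.0 CPM.

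Against the remaining cells, FGF8 was at least 2-fold higher in all 3 libraries in the SOX2 and EPCAM groups. The CDX2 ratio was 1.98 (1.16 to 3.16), 10.5 (8.28 to 13.3) and 12.5 (11.4 to 13.6). Without AHSP cells among the remaining cells, these ratios were 1.08, 7.48 and 9.21. With a gate of at least 2 CDX2 UMIs, the E19 HSTS ratio was 0.431, so its direction depended on the gate. In the EPCAM group the ratio was 7.06, 4.81 and 5.42, or 3.54, 3.22 and 3.81 without AHSP cells. The SOX2 ratio was 2.11, 2.22 and 3.44, but 0.985, 1.38 and 2.53 without AHSP cells, and among cells in exactly 1 group it was 1.24 (0.961 to 1.59), 0.771 (0.605 to 0.974) and 0.446 (0.315 to 0.614). In both HS libraries, SOX2 cells with no other marker gene were therefore below the other cells in FGF8.

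Combinations of the 3 genes placed the FGF8 level more closely. Cells with SOX2, EPCAM and CDX2 together held FGF8 at 176.4 CPM in E16 HS (213 cells), 48.4 CPM in E19 HS (24 cells) and 7.48 CPM in E19 HSTS (24 cells). Cells with EPCAM and CDX2 had 9.39, 79.1 and 109.2 CPM. Cells with CDX2 alone had 17.9 CPM in 32 cells, 151.8 CPM in 39 cells and 91.7 CPM in 371 cells. Cells with SOX2 alone were low in each library, at 6.31, 5.32 and 9.07 CPM. EPCAM alone gave 29.5 CPM in E19 HSTS, above its 15.3 CPM in E19 HS and near its 27.3 CPM in E16 HS. FGF8 was thus lowest in E19 HSTS in every combination with CDX2 named here, and not in EPCAM-only cells. The E19 HSTS values with CDX2 rest on 2, 4 and 5 UMIs. In cells with SOX2, EPCAM and CDX2 together, its interval (0.906 to 27 CPM) overlapped that of E19 HS (24.2 to 86.6 CPM). FGF8 was held by 8.09% of all EPCAM cells in E19 HSTS and 8.97% in E19 HS. Of the 8 E19 HSTS cells with at least 10 FGF8 UMIs, 5 carried EPCAM, and their part in the EPCAM level was not tested.

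Between breeds at day 19, the FGF8 difference inside groups was largest in CDX2 cells among the ratios given here. There the ratio of HSTS to HS was 0.168 (0.095 to 0.282), from 18 against 85 UMIs. The summed caudal markers of the group also differed between these libraries (7.35 against 35 CPM), and their part in the ratio was not tested. The DCN group gave 0.408 (0.19 to 0.825) from 12 against 29 UMIs. The ratio was 1.05 (0.885 to 1.25) in EPCAM cells, 0.825 (0.677 to 1) in SOX2 cells, 0.873 (0.642 to 1.19) in MEOX1 cells and 0.61 (0.361 to 1.02) in MYF6 cells. These 4 intervals included or touched 1.

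Most FGF8 cells held few molecules. A single FGF8 UMI was all that 389 of the 865 E16 HS cells held, as did 159 of the 282 E19 HS cells and 122 of the 209 E19 HSTS cells. At least 10 UMIs were found in 8, 2 and 23 cells, with a maximum of 28, 11 and 34. These cells held 128 of 521, 21 of 587 and 320 of 2257 FGF8 UMIs. Of the 23 such cells of E16 HS, 20 carried CDX2, 18 EPCAM and 15 SOX2. Of the 8 of E19 HSTS, 5 carried EPCAM, 5 SOX2 and 0 CDX2.

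By marker gene, FGF8 cells were enriched for EPCAM in all 3 libraries. EPCAM was found in 41.6% of FGF8 cells against 10.5% of other cells (E19 HSTS), 45% against 12.5% (E19 HS) and 52% against 18.3% (E16 HS). CDX2 was found in 6.22% of FGF8 cells against 1.73%, 13.1% against 1.2% and 47.3% against 7.68%. EPCAM cells held 49.7%, 46.5% and 63.7% of all FGF8 UMIs, SOX2 cells 33%, 45% and 36.2% and CDX2 cells 3.45%, 14.5% and 61.6%, with cells in more than 1 group counted in each. MEOX1 was found in 28.7%, 13.8% and 9.6% of FGF8 cells. FGF8 cells were deeper than the rest in each library, with medians of 9904 against 8621, 8737.5 against 6842 and 10095 against 8902 UMIs. After thinning, EPCAM was found in 20.6%, 23.4% and 29.5% of FGF8 cells, CDX2 in 1.96%, 9.22% and 28.6% and MEOX1 in 9.8%, 4.26% and 2.95%. The libraries kept their order for each of these 3 genes at equal depth.

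FGF8 was also present in cells with marker genes of other tissues. TP63 cells (TP63 is a surface ectoderm regulator that is also active in the limb ridge) had FGF8 at 110.5 CPM (83.5 to 143.5) in E19 HSTS and 98.3 CPM (67.3 to 138.8) in E19 HS, from 44 and 31 cells. In 36 TP63 cells of E16 HS it was 6.06 CPM (1.25 to 17.7, 3 UMIs). The E19 UMIs lay in only 10 and 9 of these cells, and the level intervals do not cover that clustering. By cells, FGF8 was detected in 22.7% (11.5 to 37.8), 29% (14.2 to 48) and 5.56% (0.68 to 18.7) of TP63 cells. The E16 HS interval of that share overlapped both E19 intervals. TP63 cells held 10.7% and 5.45% of the FGF8 UMIs of E19 HSTS and E19 HS, and 0.133% in E16 HS. EN1 cells (EN1 marks the midbrain-hindbrain border and ventral limb ectoderm) had 25.9, 24.8 and 14.6 CPM, from 20, 23 and 6 UMIs. TNNT2 cells, which express a troponin of heart muscle, had 11.9, 11.7 and 18.1 CPM. Against all remaining cells, AHSP cells included, both had ratio intervals above 1 in the E19 libraries. In E16 HS the ratios were 0.731 (0.268 to 1.59) for EN1 and 0.905 (0.639 to 1.25) for TNNT2 cells. PAX2 cells, between 26 and 30 per library, had 15.1, 6.71 and 37.4 CPM, from 5, 2 and 16 UMIs in 2, 1 and 7 cells. Their ratio interval was above 1 in E16 HS only (1.07 to 3.07).

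By level, FGF17 was highest in the CDX2 group in both HS libraries. Its level there was 21.5 CPM (19 to 24.1) in E16 HS and 9.27 CPM (4.94 to 15.9) in E19 HS. In E19 HSTS 0 of 176 CDX2 cells held it, where the limit of 3 counts is 1.7 CPM and the exact interval reaches 2.09 CPM. EPCAM cells had 0.0818, 0.737 and 8.64 CPM and SOX2 cells 0.106, 0.67 and 5.35 CPM, lower than CDX2 cells in both HS libraries. CDX2 cells held 71.4% of FGF17 UMIs in E16 HS but 34.2% in E19 HS. In E19 HS, SOX2 cells held 42.1% and cells of none of the 8 groups 26.3%. Both UMIs of E19 HSTS lay in SOX2 cells. The ratio of CDX2 cells to the remaining cells was 32.4 (15.2 to 65.8) in E19 HS and 19.4 (15.5 to 24.4) in E16 HS. FGF17 cells mostly held FGF8 as well, in 214 of 302 cells (70.9%) of E16 HS and 23 of 32 (71.9%) of E19 HS. The converse share was smaller, since 24.7% of FGF8 cells of E16 HS and 8.16% of E19 HS held FGF17, against 0.841% and 0.087% of cells without FGF8. In E19 HSTS it was 0.478% of FGF8 cells.

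FGFR1 was highest in the CDX2 group in each library, with an interval apart from that of the next group. Its level there was 108.0 CPM (93.2 to 124.5), 104.1 CPM (87.9 to 122.5) and 82.6 CPM (77.7 to 87.7). SOX2 cells had 71.7, 57.4 and 64.6 CPM, MEOX1 cells 70.8, 61.6 and 68.6 CPM, and EPCAM cells 59.6, 53.6 and 56.2 CPM. These 3 groups lay close together in every library. DCN cells had 47, 40 and 20.7 CPM, PECAM1 cells 42.8, 34 and 37.8 CPM, MYF6 cells 42.7, 46 and 40.3 CPM and AHSP cells 2.71, 2.34 and 3.36 CPM. FGFR1 RNA was thus well above the AHSP level in each of the other 7 groups.

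FGF17 and FGFR4 were left out of the counts of members in groups, since at least 1 library held under 50 of their UMIs. Relative to the remaining cells, 1 of the 4 members compared was at least 2-fold higher in the CDX2 group in all 3 libraries, where 1.96% of 10549 genes were. This was FGFR1, at 2.96, 2.84 and 3.09. Without AHSP cells among the remaining cells the ratios were 1.65, 2.04 and 2.29, so 0 of 4 members passed, where 0.521% of genes did. The SOX2 ratio of FGFR1 was 2.4, 1.88 and 2.31, or 1.16, 1.19 and 1.7 without AHSP cells. The EPCAM ratio was 1.72, 1.53 and 2.19, or 0.882, 1.04 and 1.55. Its direction in E19 HSTS therefore depended on the AHSP cells, as did that of DCN cells there (1.27 and 0.685).

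FGFR2 had a different order of groups. CDX2 cells held 41.9, 28.5 and 14.5 CPM, EPCAM cells 32.5, 25.2 and 19.9 CPM, SOX2 cells 28.8, 22.2 and 20 CPM and DCN cells 22.6, 20.6 and 12.2 CPM. MEOX1 cells were lower at 12.4, 12 and 6.85 CPM, MYF6 cells at 9.25, 9.4 and 8.54 CPM and PECAM1 cells at 5, 8.21 and 1.45 CPM, the last from 1 UMI. In E16 HS the CDX2 interval (12.5 to 16.7) lay below those of the EPCAM and SOX2 groups. In E19 HS the CDX2 interval (20.4 to 38.9) overlapped both, and in E19 HSTS it overlapped that of EPCAM. In the EPCAM group 2 of 4 members (FGF8 and FGFR2) were at least 2-fold higher in all 3 libraries, where 3.84% of genes were. The FGFR2 ratio was 3.11, 2.05 and 2.18, or 1.61, 1.38 and 1.53 without AHSP cells, leaving 1 of 4 (FGF8) where 2.47% of genes passed. The MEOX1 ratio of FGFR2 was 0.936 (0.746 to 1.16), 0.832 (0.625 to 1.09) and 0.565 (0.417 to 0.749), with an interval below 1 in E16 HS only, or 0.506, 0.586 and 0.425 without AHSP cells.

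FGFR3 was found mainly in SOX2 and EPCAM cells, which overlap. Its level in SOX2 cells was 11.4, 7.58 and 4.48 CPM, and the group held 63.2%, 68.8% and 32.7% of all FGFR3 UMIs. EPCAM cells had 8.91, 4.71 and 4.7 CPM and held 32.1%, 24.3% and 59.1%, so in E16 HS the EPCAM group held the larger share. DCN cells had 5.53, 2.67 and 1.65 CPM, CDX2 cells 3.39, 2.85 and 2.25 CPM and MEOX1 cells 0.834, 1.92 and 0.548 CPM. In the SOX2 group 2 of 4 members (FGF8 and FGFR3) were at least 2-fold higher in all 3 libraries, where 3.92% of genes were. The FGFR3 ratio was 7.36, 5.99 and 2.94, or 3.68, 3.92 and 2.14 without AHSP cells, leaving 1 of 4 (FGFR3) where 1.64% of genes passed. FGFR3 was the member that kept a 2-fold higher level in the SOX2 group under both comparisons.

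FGFR4, a receptor of endoderm and muscle, was too rare to place in most groups. EPCAM cells held 13 of 17, 7 of 13 and 3 of 10 FGFR4 UMIs. The EPCAM ratio was 23.2 (7.17 to 97.7), 6.46 (1.86 to 23.3) and 1.33 (0.221 to 5.81), so it was above 1 in both E19 libraries and not distinguishable from 1 in E16 HS at this depth.

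In the other groups fewer members stood out. None of the 4 members compared was 2-fold higher in all 3 libraries in MEOX1 cells (1.05% of genes, 0.521% without AHSP cells among the remaining cells), DCN cells (2.83%), PECAM1 cells (5.81%), MYF6 cells (0.929%) or AHSP cells (1.79%). All 4 were at least 2-fold lower in AHSP cells in all 3 libraries, where 50.8% of genes were. None was at least 2-fold lower in PECAM1 cells in all 3 libraries (3.61%). FGFR2 there still had a ratio interval below 1 in each library (ratios 0.376, 0.569 and 0.123). In MYF6 cells FGFR3 counted as lower in all 3 libraries (2.92% of genes), from 1, 0 and 0 UMIs, a depth at which a count of 0 does not itself show a 2-fold difference in the HS libraries.

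FGFR1 was the larger part of the receptor RNA in each of these groups, by amounts that varied. It supplied 84%, 81.4% and 90.1% of receptor UMIs in MEOX1 cells and 70.2%, 76.8% and 83.2% in CDX2 cells. In PECAM1 cells it supplied 85.6%, 79.8% and 96.3%, from only 90, 109 and 27 receptor UMIs. In SOX2 cells it supplied 64%, 65.8% and 72.4%, with FGFR3 at 10.2%, 8.69% and 5.02%. In EPCAM cells the FGFR2 share was 31.8%, 30% and 24.6%, and in DCN cells 30%, 32.5% and 35.3%. Over all cells the FGFR1 share was 69.3%, 68.5% and 70.6%.

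**Figure D3:**
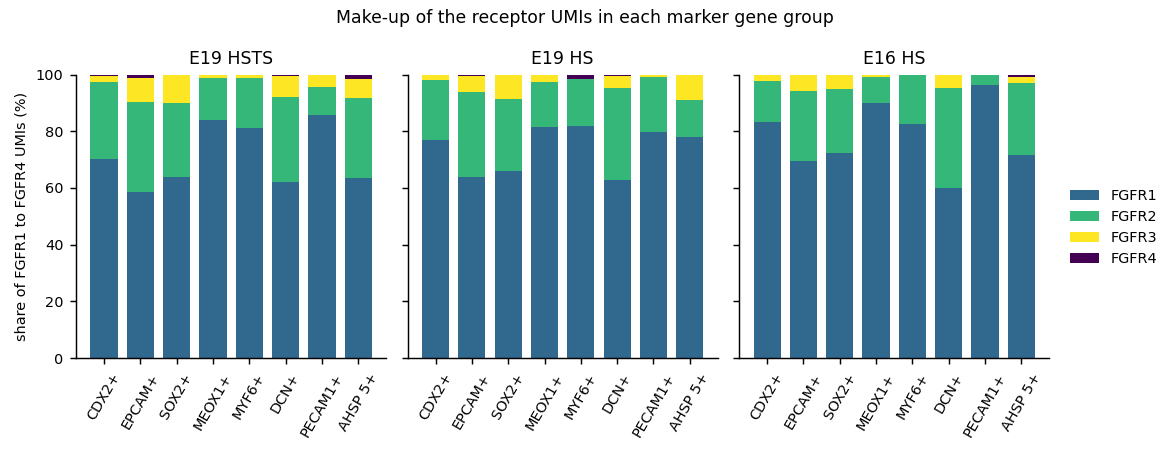
Share of FGFR1, FGFR2, FGFR3 and FGFR4 among all receptor UMIs of each marker gene group, in percent, 1 stacked bar per group and library. FGFR1 makes up 79.8 to 96.3% in MEOX1 and PECAM1 cells, and FGFR2 makes up 24.6 to 35.3% in DCN and EPCAM cells. The 96.3% of PECAM1 cells in E16 HS rests on 27 receptor UMIs.

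Counting cells, any of the 4 receptors was detected in 69.3%, 58.4% and 55.3% of CDX2 cells, 61.2%, 48.9% and 52.6% of EPCAM cells and 55.7%, 44.8% and 48.4% of SOX2 cells. The shares were 47.7%, 42% and 44.6% in MEOX1 cells and 48.1%, 36.4% and 29.6% in DCN cells. After thinning to 3000 UMIs they were 33.9%, 30.7% and 24.4% in CDX2 cells, 27.9%, 22.8% and 21.3% in EPCAM cells and 27.7%, 22.8% and 21.8% in SOX2 cells. MEOX1 cells then had 20.6%, 22.1% and 18%, DCN cells 21.8%, 18.3% and 10.9%, PECAM1 cells 13.6%, 11.1% and 4.35% and MYF6 cells 12.9%, 13.2% and 17.6%. AHSP cells, which are the deepest, had 1%, 0.5% and 1.32%. Receptor RNA was therefore seen above the AHSP level in all 7 other groups, with 1 exception after thinning. There the PECAM1 share of E16 HS (3 of 69 cells, 0.906 to 12.2%) overlapped that of AHSP cells (0.867 to 1.93%). A cell without a receptor UMI may still have expressed one.

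Between breeds at day 19, ratios of FGFR1, FGFR2 and FGFR3 inside groups lay on both sides of 1, and those with an interval apart from 1 were above it. The HSTS to HS ratio for FGFR1 was 1.25 (1.16 to 1.35) in SOX2 cells, 1.18 (1.01 to 1.37) in DCN cells, 1.11 (1 to 1.24) in EPCAM cells and 1.04 (0.832 to 1.3) in CDX2 cells. For FGFR2 it was 1.3 (1.15 to 1.47) in SOX2 cells, 1.29 (1.11 to 1.49) in EPCAM cells and 1.47 (0.985 to 2.21) in CDX2 cells. For FGFR3 it was 1.5 (1.23 to 1.84) in SOX2 cells and 1.89 (1.38 to 2.62) in EPCAM cells. Ratios under 1 had intervals that included 1, namely FGFR3 in MEOX1 cells (0.434, 0.127 to 1.36) and in cells of none of the 8 groups (0.689, 0.378 to 1.22), FGFR2 in PECAM1 cells (0.609, 0.246 to 1.39) and MYF6 cells (0.985, 0.399 to 2.51), and FGFR1 in MYF6 cells (0.928, 0.625 to 1.38). The CDX2 group, in which FGF8 had a ratio of 0.168, had an FGFR1 interval that included 1. The share of all genes with such ratios inside groups was not computed. Genes that relay the receptor signal are given here for SOX2 cells only. PTPN11 stood at 140.1 against 120.2 CPM (E19 HSTS against E19 HS) and GRB2 at 47.3 against 41.2, each with intervals apart. Intervals overlapped for FRS2 (12.5 against 9.88 CPM), GAB1 (5.25 against 3.98), PLCG1 (4.08 against 3.35) and SHC1 (1.75 against 2.72). FRS3, with 1 and 2 UMIs, was too rare to compare.

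In E16 HS, FGFR2 was lower in cells that held FGF8 than in other cells of their group. In CDX2 cells of E16 HS, FGFR2 stood at 2.76 CPM (13 UMIs in 409 cells) where FGF8 was detected and 21.2 CPM (174 UMIs in 804 cells) where it was not, a ratio of 0.13 (0.0678 to 0.228). In E19 HSTS and E19 HS the CDX2 ratio was 0.726 (0.193 to 1.94) and 0.539 (0.185 to 1.3), from 4 and 6 UMIs in FGF8 cells, and both intervals included 1. In SOX2 cells it was 0.475 (0.216 to 0.909), 0.386 (0.191 to 0.696) and 0.204 (0.11 to 0.347), with 3 intervals below 1. After thinning, the SOX2 ratio was 1.06 in E19 HSTS and 0.637 (0.127 to 1.96) in E16 HS. In these libraries the SOX2 difference was thus not distinguishable from none at equal depth. No thinned value is given here for E19 HS. In EPCAM cells the ratio was 0.88 (0.585 to 1.28), 0.753 (0.488 to 1.12) and 0.302 (0.212 to 0.419). The E16 HS library gave an interval below 1 in all 3 groups, and after thinning still in CDX2 cells (0.122, 0.00299 to 0.741) and EPCAM cells (0.322, 0.0649 to 0.976).

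FGFR1 did not follow this pattern. In EPCAM cells its ratio between cells with and without FGF8 was 1.22 (0.943 to 1.55), 1.27 (1.01 to 1.59) and 1.8 (1.61 to 2). In SOX2 cells it was 1.06, 0.934 and 1.65 (1.43 to 1.89), with 0.755 in E16 HS among cells in exactly 1 group. In CDX2 cells it was 1.16 (0.65 to 1.94), 1.59 (1.11 to 2.26) and 1.2 (1.06 to 1.35), but after thinning 0.907 (0.594 to 1.35) in E16 HS and 0.782 (0.148 to 2.68) in E19 HS. At that depth, which leaves few counts, no FGFR1 difference was detectable in CDX2 cells. In MEOX1 cells FGFR1 was 0.819, 0.875 and 0.947, with intervals that included 1.

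**Figure D4:**
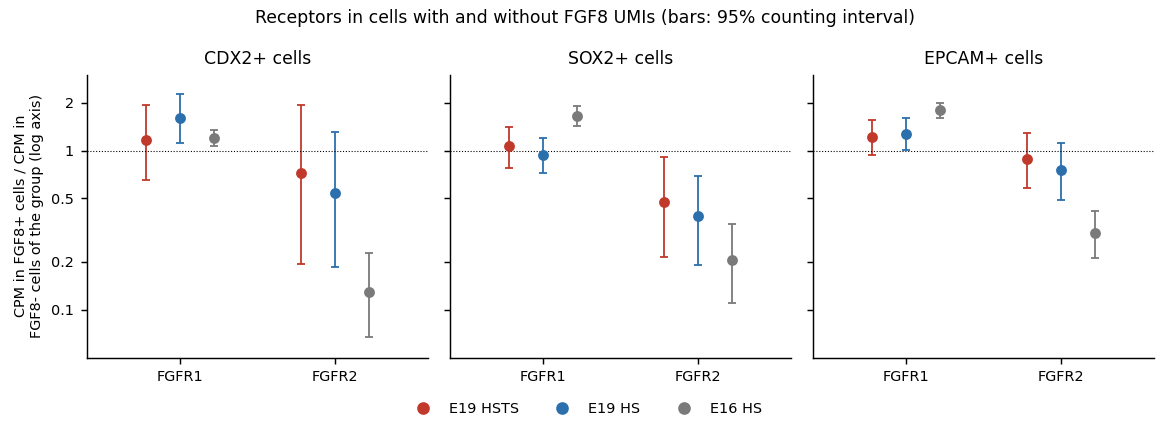
Ratio of FGFR1 and FGFR2 between cells with and without FGF8 inside the CDX2, SOX2 and EPCAM groups, on a log axis with exact conditional 95% intervals, 1 point per library and a line at 1. FGFR2 in E16 HS lies below 1 in all 3 groups (0.13, 0.204 and 0.302), and FGFR1 there lies above 1 (1.2, 1.65 and 1.8).

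Some response genes were higher in cells that held FGF8. Of 15 genes in the list, 11 had enough UMIs, and 5 (DUSP4, DUSP6, ETV5, IL17RD and SPRY2) were at least 2-fold higher in FGF8 cells in all 3 libraries, where 1.22% of genes were. Their list had a median ratio of 2.78, against 1.25 over all compared genes. DUSP6, which encodes a phosphatase that inactivates ERK, stood at 159.1 against 39, 143.0 against 38 and 275.9 against 55.6 CPM. IL17RD, a membrane inhibitor of FGF receptors, stood at 32.9 against 8.74, 40.7 against 8.11 and 49.6 against 9.36 CPM. Without AHSP cells among the remaining cells, 2 of 11 (DUSP6 and IL17RD) passed, where 0.294% of genes did, and the list had a median of 2.04 against 1.01. The DUSP6 ratio was then 2.28 (2.04 to 2.55), 2.7 (2.42 to 3) and 3.72 (3.55 to 3.9), and that of IL17RD 2.32 (1.8 to 2.95), 3.88 (3.14 to 4.75) and 4.37 (3.9 to 4.89).

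Inside marker gene groups the difference in these 2 genes was present but not uniform. DUSP6 in FGF8 cells against other CDX2 cells had ratios of 1.3 (0.779 to 2.07), 2.66 (1.96 to 3.62) and 1.88 (1.76 to 2.01). In EPCAM cells the ratios were 1.54, 2.6 and 2.58 and in SOX2 cells 1.91, 2.74 and 3.39. IL17RD had ratios of 2.99 (1.2 to 6.58), 4.4 and 2.4 in CDX2 cells, 3.02, 3.35 and 3.66 in EPCAM cells and 4.21, 4.01 and 4.79 in SOX2 cells. In MEOX1 cells it had 1.32, 1.35 and 1.42, and those 3 intervals included 1.

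**Figure D5:**
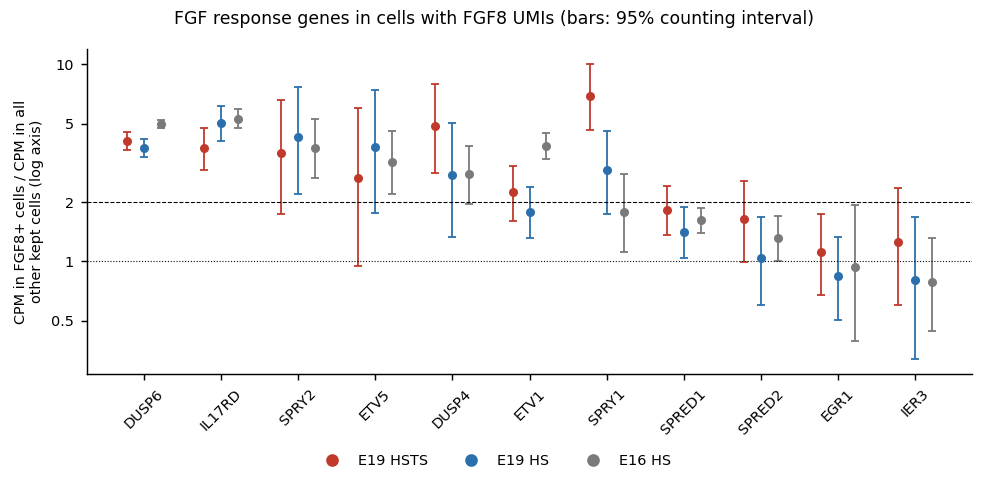
Ratio of 11 FGF response genes between cells with FGF8 and all other kept cells, on a log axis with exact conditional 95% intervals, 1 point per library and lines at 1 and 2. DUSP6 (4.08, 3.76 and 4.97) and IL17RD (3.76, 5.03 and 5.3) lie above 2 in all 3 libraries.

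By marker gene group, DUSP6 was high in cells with much FGF8 and in cells with little. CDX2 cells had 121.6, 125.5 and 264.4 CPM, MYF6 cells 160.9, 139.1 and 103.2 CPM, MEOX1 cells 118.1, 87.9 and 96.4 CPM and PECAM1 cells 87.8, 73.9 and 82.9 CPM. PECAM1 cells held 0 FGF8 UMIs in both E19 libraries, but 7 UMIs (10.2 CPM) in E16 HS. DCN cells had 39.6, 42.3 and 37.6 CPM and AHSP cells 3.24, 2.69 and 7.35 CPM. The CDX2 groups of E19 HSTS and E19 HS had near-equal DUSP6, where their FGF8 ratio was 0.168. In the CDX2 group 4 of 11 response genes (DUSP4, DUSP6, ETV1 and IL17RD) were 2-fold higher in all 3 libraries (1.96% of all genes), and 0 of 11 were without AHSP cells among the remaining cells (0.521%). In the EPCAM group they numbered 3 (ETV5, SPRY1 and SPRY2, with 3.84% of all genes), against 1 (IER3, with 2.47%) without AHSP cells. In the SOX2 group (3.92%) and the MEOX1 group (1.05%) they numbered 0. Between days in Hu sheep, 1 of 12 compared (DUSP6, ratio 1.81) was at least 1.5-fold higher at E16 and 3 (EGR1, IER3 and SPRY1) were at least 1.5-fold lower, where 22.7% of all genes were higher and 10.3% lower.

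The genes that carry the signal inward were present in every library. PTPN11, the phosphatase that links receptors to RAS, stood at 98.1, 97.4 and 133.1 CPM over all cells, and GRB2, the adaptor that recruits the RAS exchange factor, at 40.1, 37.9 and 43.3 CPM. FRS2, the adaptor bound to the receptors, stood at 7.42, 7.55 and 6.85 CPM. Of 6 relay genes compared, 0 was 2-fold higher in the SOX2, MEOX1, EPCAM, DCN, MYF6 or CDX2 group in all 3 libraries, and 1 (SHC1) was in the PECAM1 group, where 5.81% of all genes were. The shares of all genes for the other 6 groups lay between 0.929 and 3.92%. Among 13 co-receptors in the files, glypican GPC3 and syndecan SDC1, which carry heparan sulphate, were at least 2-fold higher in the CDX2 group in all 3 libraries (2 of 11 compared, with 1.96% of all genes). GPC3 stood at 110.8, 100.6 and 101.0 CPM there, against 53.8, 44.7 and 49 CPM over all cells, and 0 of 11 passed without AHSP cells among the remaining cells (0.521% of all genes).

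Across the 24 values of 8 groups in 3 libraries, the genes whose pattern was most like FGF8 among 7532 candidates were ERICH2, HOXD3 and HOXC4, with Pearson correlations of log2(CPM + 1) of 0.92, 0.91 and 0.91. For FGF17 they were CDX4 (0.88), SLC2A5 (0.81) and DLL3 (0.75). FGFR1 was closest to RSF1 (0.98), WNK3 (0.98) and RIMKLB (0.97), FGFR2 to ID4 (0.94), FGD4 (0.94) and SCT (0.93), FGFR3 to LRP2 (0.88), UEVLD (0.86) and TFAP2B (0.86) and FGFR4 to SLC8A1 (0.76), CDH16 (0.72) and DUSP9 (0.71). Among the members, FGF8 had a correlation of 0.68 with FGF17, 0.67 with FGFR1, 0.56 with FGFR2 and 0.27 with FGFR3. The 24 points share libraries and overlapping cells, and the low AHSP values in each library are part of all these correlations, which are given as a description.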

How the data were processed

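The authors prepared 10x Genomics 3′ libraries from whole embryos and counted reads with Cell Ranger 6.1.2 against Ovis_aries_genome_v1.0, then used R 4.1.2 and Seurat 4.1.1, per the submitters' processing notes and the study's methods. The deposited matrices hold raw counts of UMIs per gene and cell, with no normalization. Kept cells had between 200 and 6000 genes, a total of 1000 to 30000 UMIs and no more than 10% of them from MT- genes. Doublets were not removed, and cells that share marker genes may include them. UMIs were summed per library and cell group and scaled to 1000000.

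Groups were cells with at least 1 UMI of a marker gene (AHSP at least 5). The 2 identifiers that carry the symbol MYF6 were summed. Between libraries, genes with at least 50 UMIs in the higher library entered the share of all genes past a fold of 1.5. For groups, genes with at least 50 UMIs in every library entered the share past a fold of 2 in all 3 libraries. That rule left FGF17 and FGFR4 out of the members compared in groups. Likeness was the correlation of levels over groups and libraries, among genes with at least 500 UMIs. Intervals were exact at 95%. Alternatives were a stricter cell filter, no filter, thinning to 3000 UMIs, other gates, TMM scaling (edgeR 4.0.16), means over cells and leaving out AHSP cells. The scripts, in Python 3.11.15 (pandas 2.3.3, scipy 1.17.1, numpy 2.4.6), were tested on simulated data.

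The text names the 6 members, the marker genes, the genes of the ligand, co-receptor, relay and response lists, further single marker genes and the 3 genes most like each member. Members and lists were chosen with earlier results of these data known. FGF1, FGF21, SDC2, SOS1, CLDN6 and HBA1 were not used here. No reference genome of the files' build was used, so no sequence or coordinate is given.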

Additional observations from a re-analysis of the deposited data

Results flagged for a closer look

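The ratio of E16 HS to E19 HS went in opposite directions in different marker gene groups for 3 of the 6 genes, counting only ratios whose 95% counting interval excluded 1. With 1 library for each day, the difference between groups was not tested. For FGF8, the ratio was 4.6 in SOX2 cells, 2.58 in EPCAM cells, 2.31 in DCN cells, 1.78 in CDX2 cells and 16.6 in AHSP cells, against 0.505 in MYF6 cells. The AHSP value compares 1.29 with 0.0781 CPM, which rests on 37 and 2 UMIs. For FGFR1, it was 1.12 in SOX2 cells and 1.43 in AHSP cells, against 0.517 in DCN cells and 0.793 in CDX2 cells. The FGFR2 contrast rests on AHSP cells alone, whose level (1.19 against 0.39 CPM, 34 and 10 UMIs) is taken in the report as that of free RNA. It was 3.05 there, against 0.572 in MEOX1 cells, 0.791 in EPCAM cells, 0.59 in DCN cells and 0.508 in CDX2 cells. The MYF6 group of E16 HS had 3 of 5 muscle markers at 0, and the DCN group was 25.1% of cells in E16 HS against 8.96% in E19 HS, and the part of both in these ratios was not tested.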

How the results depend on the processing

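Of 72 recomputed library ratios, 59 stayed within their counting interval (for counts, within 1.5 times), as did 317 of 510 group ratios, 55 of 60 counts of group ratios, 43 of 90 marker shares, 85 of 144 receptor shares, 34 of 47 receptor ratios in FGF8 cells, 8 of 14 response gene counts and 11 of 15 shares of all genes. The cause of the moves below was not tested. For E19 HSTS to E19 HS, leaving out AHSP cells gave 1.02 for FGF8, 1.28 for FGFR1, 1.16 for FGFR2 and 1.48 for FGFR3, and means over cells gave 1.11 for FGFR1 and 1 for FGFR2. For E16 HS to E19 HS, TMM scaling gave 2.61 for FGF8, 0.76 for FGFR1 and 0.715 for FGFR2. FGFR1 was 0.829 without AHSP cells, 0.776 after thinning and 0.81 by means over cells, and FGFR2 was 0.749 by means over cells. The ratio to the remaining cells turned for FGF8 in the SOX2 group of E19 HSTS (0.964 thinned, 0.985 without AHSP cells), E19 HS (0.771, cells in exactly 1 group) and E16 HS (0.446, likewise), and in the CDX2 group of E19 HSTS (0.431, at least 2 CDX2 UMIs). It turned for FGF17 in the SOX2 group of E16 HS (0.923 with at least 2 SOX2 UMIs, 0.203 in exactly 1 group). Without AHSP cells it turned in E19 HSTS for FGFR1 in the EPCAM group (0.882) and the DCN group (0.685), for FGFR2 in the DCN group (0.996) and for FGFR3 in the DCN group (0.933, and 0.959 thinned). FGFR2 in the CDX2 group of E16 HS was 0.939 without AHSP cells and 1 in exactly 1 group. FGFR1 had 7 group ratios with an interval under 1 without AHSP cells, and FGFR4 had 0 above 1 after thinning and 1, 0 and 1 under 1 with the stricter filter, thinning and no AHSP cells. Response genes 2-fold higher in all 3 libraries numbered 1, 0 and 1 in the MEOX1, EPCAM and DCN groups with cells in exactly 1 group, and 1, 0 and 2 in the EPCAM, CDX2 and FGF8-positive cells without AHSP cells, an alternative chosen after seeing the data. With at least 200 UMIs per gene, 2.55% of genes were higher in the EPCAM group, 2.33% lower in the PECAM1 group, 1.8% lower in the MYF6 group and 6.71% lower between E16 and E19. Inside groups, thinning took FGFR2 in FGF8 cells of the SOX2 group of E19 HSTS to 1.06 and FGFR1 in the CDX2 group to 0.782 in E19 HS and 0.907 in E16 HS, and FGFR1 in the SOX2 group of E16 HS was 0.755 in exactly 1 group. These alternatives for receptors in FGF8 cells were also chosen after seeing the data. Single libraries and FGF17 and FGFR4 counts under 50 UMIs limit what the depth can show. No paired analysis was possible because each group has 1 library.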

Other observations

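Of 18 other FGF ligands in the files, 6 or 7 had enough UMIs to compare. FGF18, a ligand of the same subfamily, stood in MEOX1 cells at 2.78 CPM in E19 HSTS, 3.63 CPM in E19 HS and 12.5 CPM in E16 HS, against 0.894, 0.845 and 1.17 CPM over all cells. It was the 1 of 6 ligands compared that was at least 2-fold higher there in all 3 libraries (1.05% of all genes), also without AHSP cells among the remaining cells (0.521%). FGF13, an intracellular family member that does not bind the receptors, was highest in SOX2 cells (3.71, 2.72 and 2.24 CPM), and FGF5 was at least 2-fold higher in EPCAM cells in all 3 libraries (3.35, 3.17 and 3.04 CPM). FGF8 was 2-fold higher in these same groups, where 3.92% and 3.84% of all genes were. Without AHSP cells among the remaining cells, FGF13 still passed in SOX2 cells (1.64% of all genes) and 0 of 6 ligands passed in EPCAM cells (2.47%). FGF8 then passed in EPCAM cells but not in SOX2 cells. FGF7, a mesenchymal ligand of the epithelial form of FGFR2, stood at 0.628, 3.82 and 13 CPM in DCN cells, and FGF10, which binds the same receptor form, at 2.39, 1.66 and 5.58 CPM. FGF23 had 0 UMIs in all 3 libraries. Between days in Hu sheep, FGF7, FGF10 and FGF19 (3 of 7 compared) were at least 1.5-fold higher at E16 and 0 lower, where 22.7% and 10.3% of all genes were. FGF7 was the 1 of 6 that was at least 1.5-fold lower in E19 HSTS than in E19 HS (6.46% of all genes).

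The Klotho co-receptors KL and KLB, which serve the hormone-like FGFs, differed between the libraries. KL stood at 6.05, 1.92 and 0.108 CPM in EPCAM cells and KLB at 6.91, 4.71 and 0.167 CPM in DCN cells, lowest in E16 HS in both cases. GPC4, a glypican, went the other way in DCN cells, at 3.52, 2.55 and 23.7 CPM. Of 12 co-receptors compared between days, 1 (GPC4) was at least 1.5-fold higher at E16 and 4 (FGFRL1, GPC2, KLB and SDC3) were at least 1.5-fold lower, against 22.7% and 10.3% of all genes. FLRT3, an FGF receptor binding membrane protein, was the 1 co-receptor of 11 that was at least 2-fold higher in DCN cells in all 3 libraries (15.2, 15.9 and 16.7 CPM), where 2.83% of all genes were.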
